A study of Mus musculus with 6 samples.

Results

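The transcripts described here are those of 10 regulators of the G1 phase of the cell cycle: the D-type cyclins Ccnd1, Ccnd2 and Ccnd3, their kinases Cdk4 and Cdk6, the E-type cyclins Ccne1 and Ccne2, their kinase Cdk2, the kinase inhibitor Cdkn1b and the transcription factor gene Myc. They were taken by name from the 22274 genes listed for intestinal epithelial cells isolated from mouse ileum, and all 10 had enough counts to be tested, with at least 51 estimated counts in every library. RNA was sequenced from 3 control libraries, from mice with floxed Ogt, and 3 Ogt knockout libraries, from mice with floxed Ogt and the Olfm4-CreER driver, a tamoxifen-dependent recombinase made in crypt base cells. No Cre is named for the controls, although their titles hold the name of the driver gene, Olfm4. Whether they carried the driver is thus not settled, and its effects cannot be told apart from those of losing Ogt. Ogt encodes the enzyme that adds O-GlcNAc to proteins inside the cell. Offspring were given tamoxifen on 3 days at 2 months of age and the ileum was taken on day 10. The labels do not say whether each library is a separate animal, and the p-values therefore reflect library-to-library spread, which may be technical.

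In G1, growth and Wnt signals raise D-type cyclins, which bind CDK4 or CDK6 and begin to phosphorylate the retinoblastoma protein. That frees E2F factors, which switch on E-type cyclins, and cyclin E with CDK2 completes the step into DNA synthesis. CDKN1B, a CIP/KIP protein, blocks cyclin E with CDK2 and is held away from it by cyclin D complexes. MYC, a Wnt target in the intestinal crypt, raises transcription of growth and cell cycle genes, Cdk4 among them. In the intestine the cyclins and their kinases act mainly in the dividing cells of the crypt, while cells on the villus have left the cycle.

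Each library held between 14389429 and 18076486 estimated counts. Ogt stood at 140.1, 127 and 128 CPM (counts scaled to a common library size with TMM factors) in the control libraries and at 48.5, 43.0 and 36.0 CPM in the knockout libraries, so every library fitted its label. The labels describe the knockout epithelium as negative for Ogt by day 10, and Ogt RNA remained at 0.322 of its control level. The controls differed among themselves. Over all genes, the mean chi-square per gene was 78.1 between controls 1 and 2 and 59.6 between controls 1 and 3, but 33.8 between controls 2 and 3. Knockout 1 lay at 66.0 from control 1 and 69.8 from control 2, less than the value between those 2 controls. Pairs of knockout libraries lay between 19.5 and 27.4. Control 1 had the lowest control sum of the 10 enterocyte markers, at 24171 CPM against 34012 and 33922 CPM. Its sum of the 11 stromal markers was also the lowest, at 868 CPM against 1717 and 1811 CPM. Single enterocyte markers differed: Anpep stood at 4616 CPM in control 1 against 12113 and 10867 CPM, but Alpi at 647 CPM against 529 and 613 CPM. In control 2 the 8 Paneth cell markers summed to 230 CPM against 2366 and 2069.8 CPM, and the 14 genes of later cyclins and mitosis to 278 CPM against 589 and 489.8 CPM. All tests are edgeR quasi-likelihood tests of knockout against control, with Benjamini-Hochberg adjustment over the 14005 tested genes and a threshold of 0.05, and ± after a log2 fold change is its SE. In RNA from whole epithelium, fewer cells of a type and less RNA per cell cannot be told apart.

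Promoters of 6 of the 10 genes were matched by symbol in RefSeq's GRCm38.p6 table, each as the 250 bases before an annotated start (2 starts for Ccnd3). Sequences are shown for Cdkn1b, the gene of the set that fell, and for Cdk4, the textbook MYC target among them. Capitals mark CACGTG, the E-box bound by MYC with MAX, and CCAAT, the box bound by NF-Y, each searched on both strands. The Cdk4 window is chr10:127063285-127063534 and the Cdkn1b window chr6:134920151-134920400, both on the plus strand.
Cdk4: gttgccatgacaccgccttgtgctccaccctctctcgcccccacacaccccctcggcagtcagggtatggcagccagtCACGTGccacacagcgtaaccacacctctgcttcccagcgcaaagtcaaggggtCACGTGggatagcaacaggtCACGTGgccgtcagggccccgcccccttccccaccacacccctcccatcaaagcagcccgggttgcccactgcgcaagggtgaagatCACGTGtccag
Cdkn1b: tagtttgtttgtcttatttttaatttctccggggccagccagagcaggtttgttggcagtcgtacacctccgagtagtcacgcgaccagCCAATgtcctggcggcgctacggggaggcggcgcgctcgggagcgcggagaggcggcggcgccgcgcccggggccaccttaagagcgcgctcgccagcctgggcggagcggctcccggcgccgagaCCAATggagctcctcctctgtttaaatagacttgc
The Cdk4 window held 4 E-boxes, whereas 6.02% of all 32851 windows in the table held at least 1 and 0.0609% held 3 or more. Cdk6 held 1 E-box, and the windows of Ccnd3, Ccne1, Cdk2 and Cdkn1b held no E-box. Cdkn1b held 2 CCAAT boxes, a number reached by 10.1% of windows. The Cdk2 window and 1 Ccnd3 window held 1 CCAAT box each, and 33.8% of all windows held at least 1. E2F letters (TTTGGCGC, TTTCCCGC, TTTCGCGC or TTTGCCGC, either strand) occurred in the Cdk2 window and in 1.86% of all windows, and the forkhead letters GTAAACA in 1 Ccnd3 window and in 3.17% of all. These matches describe the letters only.

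Of the 10 genes 2 rose and 1 fell, where 18.7% of all tested genes were called, 9.33% higher and 9.37% lower. Groups did not overlap for 6 of the 10, 3 higher and 3 lower, where 39.8% of all tested genes showed no overlap, 19.6% higher and 20.2% lower. The median log2 fold change was -0.10, against -0.05 over all tested genes. Ccnd1 and Ccnd2 were the genes that rose and Cdkn1b the one that fell. With control 1, 2 or 3 or knockout 1, 2 or 3 left out in turn, 3, 2, 1, 2, 2 and 1 of the 10 were higher and 2, 1, 1, 1, 1 and 1 were lower.

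**Figure D1:**
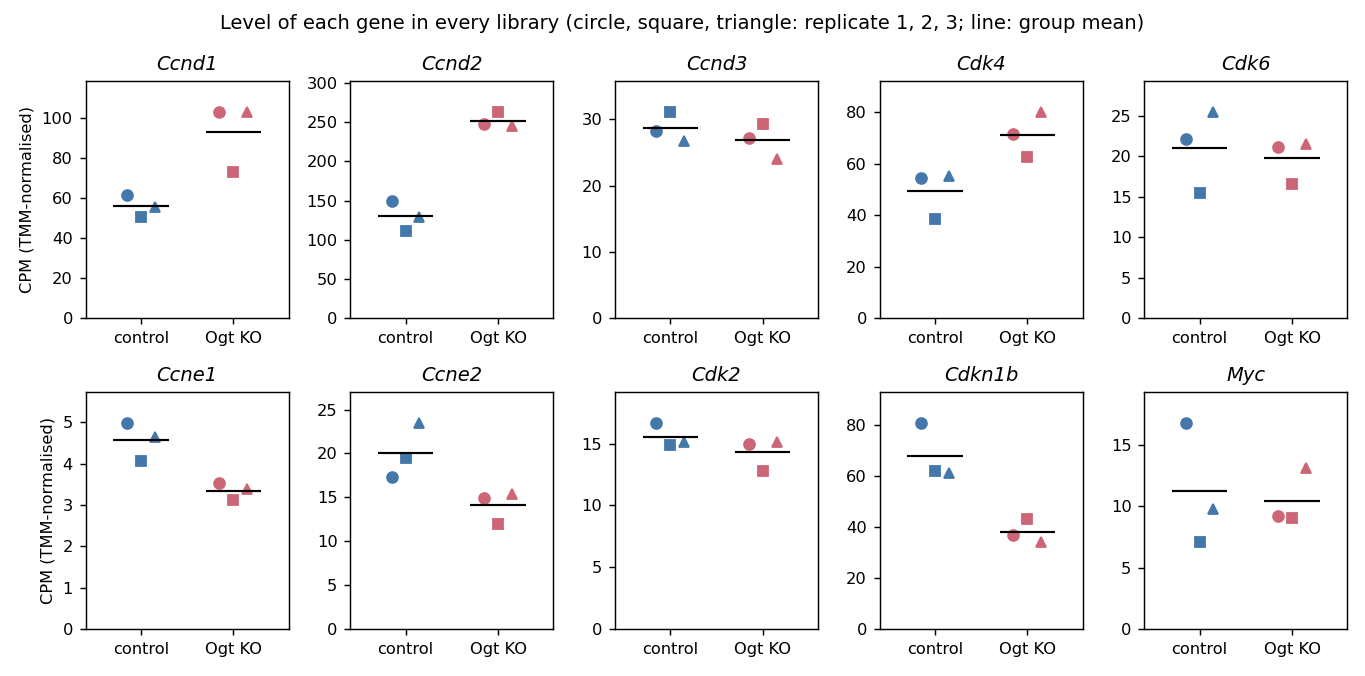
Level of the 10 genes in each of the 6 libraries, in CPM on linear axes that start at 0; symbols mark replicates 1 to 3 and horizontal lines the group means. Ccnd1, Ccnd2 and Cdk4 are higher in all 3 knockout libraries than in any control, Cdkn1b, Ccne1 and Ccne2 are lower, and the groups overlap for the other 4 genes.

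Of the D-type cyclins, Ccnd2 and Ccnd1 passed the test and Ccnd3 did not. Ccnd2, which encodes cyclin D2, stood at 149.8, 111 and 129 CPM in the controls and at 248, 263 and 245 CPM in the knockout libraries. Every knockout library lay above every control, and the knockout libraries lay closer together than the controls. Ccnd2 rose 1.94-fold (log2 fold change 0.96 ± 0.13, adjusted p = 0.00364), and it passed the test with each library left out (adjusted p up to 0.0233). Ccnd1, which encodes cyclin D1, the member most often tied to Wnt signalling, stood at 61.7, 50.3 and 55.5 CPM in the controls and at 103, 73.2 and 103 CPM in the knockout libraries. Knockout 2 was the lowest of its group but still above all controls. Ccnd1 rose 1.67-fold (0.74 ± 0.15, adjusted p = 0.0156). The call was not made without control 3 (adjusted p = 0.0576) or without knockout 3 (adjusted p = 0.0667). Ccnd3, which encodes cyclin D3, stood at 28.2, 31.1 and 26.7 CPM in the controls and at 27.2, 29.3 and 24.0 CPM in the knockout libraries. Its groups overlapped and it did not pass the test (-0.10 ± 0.13, adjusted p = 0.63).

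Ratios within a library do not depend on how libraries are scaled against each other. The log2 ratio of Ccnd2 to Ccnd3 counts was 2.17 ± 0.30 in controls and 3.24 ± 0.10 in knockout libraries (SD, n = 3), a difference of 1.06 (exact two-sided permutation test, p = 0.1, the smallest that 3 against 3 allows; adjusted over 4 ratios 0.133). That of Ccnd1 to Ccnd3 went from 0.96 ± 0.23 to 1.78 ± 0.41, a difference of 0.82 (exact permutation p = 0.1, adjusted 0.133). Neither ratio overlapped between the groups. This design cannot reach a p of 0.05, so unequal change among the D-type cyclins is given as a size and not as a call.

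**Figure D2:**
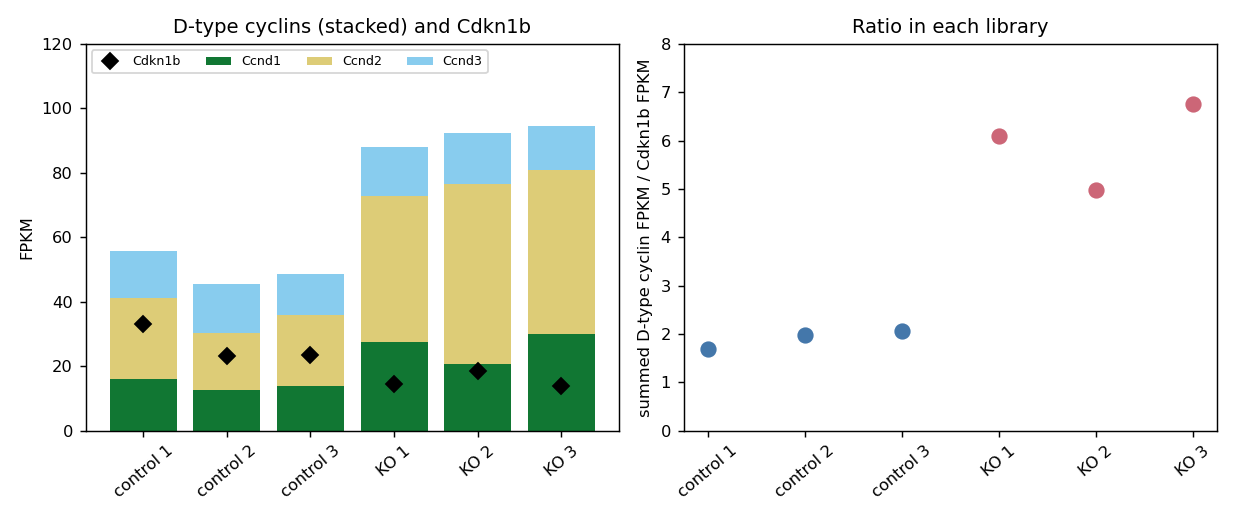
Left, FPKM of Ccnd1, Ccnd2 and Ccnd3 stacked for each library, with Cdkn1b as diamonds; right, the summed FPKM of the 3 cyclins over that of Cdkn1b. The stack stands between 45.4 and 55.8 FPKM in controls and between 88.1 and 94.6 FPKM in knockout (KO) libraries, and the ratio between 1.69 and 2.07 against 4.97 to 6.76.

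Levels of different genes were compared as FPKM, which the authors divided by length. The 3 D-type cyclins together stood at 49.9 ± 5.30 FPKM in controls and 91.7 ± 3.28 FPKM in knockout libraries (SD, n = 3). Ccnd2 made up 43.0 ± 3.44% of that sum in controls and 55.3 ± 4.74% in knockout libraries, and Ccnd3 went from 28.5 ± 4.01% to 16.2 ± 1.6%. The share of Ccnd1 was 28.5 ± 0.576% and 28.4 ± 5.34%, with knockout 2 at 22.3% and the other knockout libraries at 31.3% and 31.7%. Ccnd2 was thus the leading D-type cyclin in all 6 libraries, and Ccnd1 and Ccnd3 were level in FPKM in controls but not in knockout libraries. Of the summed CPM, which is not divided by length, Ccnd2 made up 60.4 ± 2.43% in controls and 67.8 ± 3.58% in knockout libraries, a smaller move. The length used for Ccnd2 differed between the groups, as given below.

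Of the kinases that D-type cyclins activate, Cdk4 was the abundant member. It stood at 54.4, 38.3 and 55.1 CPM in the controls and at 71.3, 62.4 and 80.0 CPM in the knockout libraries. The groups did not overlap, and control 2 was the lowest library. Cdk4 just missed the threshold (1.45-fold, 0.53 ± 0.16, adjusted p = 0.0544), and it passed in 7 of 17 alternative fits, among them DESeq2 (adjusted p = 0.0267), library size alone (0.0287) and without control 1 (0.0401). Exons of Cdk4 overlap those of Tspan31 on the opposite strand, strand marking is not stated for these libraries, and the estimated counts of Cdk4 were not whole in any library. Tspan31 went the other way (-0.54 ± 0.10, adjusted p = 0.0105), and whether shared reads were split between them was not tested.

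Cdk6 stood at 22.2, 15.5 and 25.5 CPM in the controls and at 21.2, 16.6 and 21.6 CPM in the knockout libraries. The groups overlapped, with replicate 2 lowest in both (-0.09 ± 0.20, adjusted p = 0.783). Per length, Cdk4 supplied 91.7 ± 0.918% of the FPKM of this kinase pair in controls and 93.3 ± 0.942% in knockout libraries. The log2 ratio of Cdk6 to Cdk4 counts fell from -1.24 ± 0.11 to -1.85 ± 0.09 without overlap, a difference of -0.61 (exact permutation p = 0.1, adjusted 0.133), or -0.34 when FPKM was used.

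The E-type cyclins, which act after the D-type cyclins, were lower in knockout libraries without passing the test. Ccne2 stood at 17.3, 19.5 and 23.5 CPM in the controls and at 14.9, 11.9 and 15.4 CPM in the knockout libraries. The groups were close but did not overlap (-0.52 ± 0.17, adjusted p = 0.067), and the test was passed without control 1 (adjusted p = 0.0474). Ccne1, the scarcest of the 10 genes, stood at 4.99, 4.06 and 4.65 CPM in the controls and at 3.53, 3.11 and 3.39 CPM in the knockout libraries. It too lacked overlap, with 228 counts over all controls and 171 over all knockout libraries (-0.45 ± 0.22, adjusted p = 0.184). The log2 ratio of Ccne1 to Ccne2 counts differed by 0.06 between the groups, which overlapped (exact permutation p = 0.7, adjusted 0.7). Together they stood at 8.77 ± 0.944 FPKM in controls and 6.79 ± 0.809 FPKM in knockout libraries, opposite in direction to the D-type sum. Cdk2, the kinase of cyclin E, stood at 16.7, 14.9 and 15.1 CPM in the controls and at 15, 12.8 and 15.1 CPM in the knockout libraries. Its groups overlapped and differed by less than their spread (-0.13 ± 0.14, adjusted p = 0.558).

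Cdkn1b, the CIP/KIP inhibitor, stood at 81.1, 62.0 and 61.2 CPM in the controls and at 37.0, 43.4 and 34.3 CPM in the knockout libraries. Every knockout library lay below every control, and the highest control was control 1. Cdkn1b fell to 0.561 of its control level (-0.83 ± 0.15, adjusted p = 0.00866), a decrease of 43.9%, and it passed in all 17 alternative fits (adjusted p up to 0.0461, without knockout 3). Its counts were whole in every library and no exon of another gene overlaps it in GENCODE M21. In controls the summed D-type cyclins stood at 1.91 ± 0.199 times the FPKM of Cdkn1b, and in knockout libraries at 5.94 ± 0.907 times. The highest control ratio was 2.07 and the lowest knockout ratio 4.97, in knockout 2. This ratio sets a sum that holds Ccnd1 and Ccnd2, which rose, over a gene that fell. Its separation follows from those changes and is not a further result.

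Myc varied more within the groups than between them. It stood at 16.8, 7.09 and 9.77 CPM in the controls and at 9.19, 9.05 and 13.1 CPM in the knockout libraries. Control 1 was the highest of all libraries and control 2 the lowest, so that the control range enclosed the knockout range (-0.10 ± 0.32, adjusted p = 0.848). Leaving out control 1 turned the sign (0.36, adjusted p = 0.33), and the other libraries left out gave -0.32 to -0.01. A change of Myc smaller than this spread was not detectable here.

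**Figure D3:**
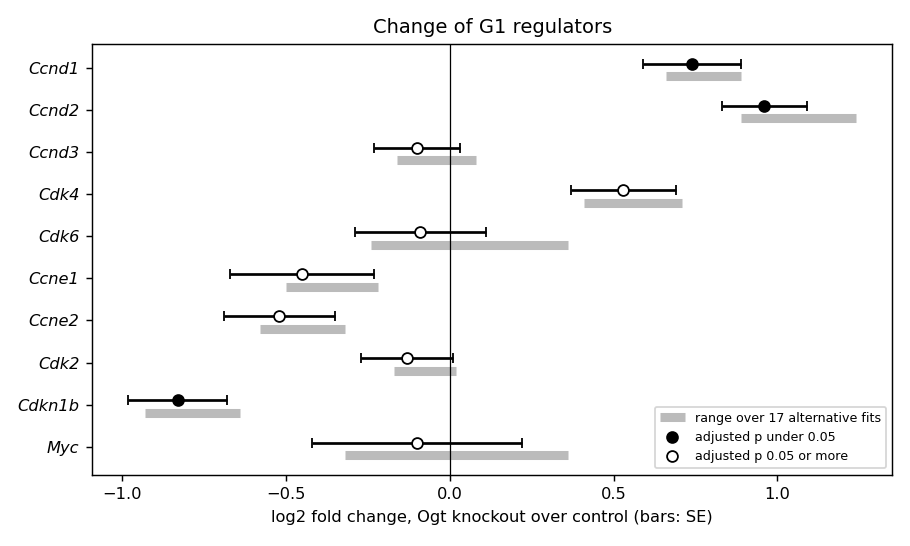
Log2 fold change of each gene, Ogt knockout over control, with its SE (points; filled where the adjusted p is under 0.05) and the range over 17 alternative fits (grey bars). Ccnd1, Ccnd2, Cdk4, Ccne1, Ccne2 and Cdkn1b stay on their side of 0 in every fit shown, while the grey bars of Ccnd3, Cdk6, Cdk2 and Myc cross 0.

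The order of the levels changed at its top. In controls Cdkn1b (26.5 ± 5.65 FPKM), Cdk4 (24.6 ± 4.97) and Ccnd2 (21.5 ± 3.66) led with overlapping ranges, followed by Ccnd1 (14.3 ± 1.75) and Ccnd3 (14.1 ± 1.25), which also overlapped. In knockout libraries Ccnd2 (50.8 ± 5.30 FPKM) and Cdk4 (40.3 ± 7.63) led, Ccnd1 (26.1 ± 4.91) came next without overlapping either neighbour, and Cdkn1b (15.7 ± 2.53) overlapped Ccnd3 (14.9 ± 1.12). Ccne2, Cdk2 and Myc followed in both groups, between 5.03 and 6.55 FPKM as group means, with overlapping ranges. Cdk6 (2.25 ± 0.591 and 2.94 ± 0.861 FPKM) and Ccne1 (2.22 ± 0.269 and 1.76 ± 0.104 FPKM) were lowest, overlapping in controls but not in knockout libraries. Among all tested genes the mean FPKM of Ccnd2 lay at percentile 85.0 and that of Ccne1 at percentile 26.2.

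Count and FPKM did not give the same change for every gene. Dividing count by FPKM and library total gives the length the authors used, and for Ccnd1 this was 3.74 kb in all 6 libraries. For Ccnd2 it was 5.77 ± 0.204 kb in controls and 5.22 ± 0.283 kb in knockout libraries, without overlap, and 2.67% of the 9987 genes with at least 50 counts and 1 FPKM throughout shortened by more. For Cdk6 it was 8.96 ± 0.751 kb and 7.26 ± 1.19 kb, with 6.95 kb in knockout 1 and 6.27 kb in knockout 3 but 8.58 kb in knockout 2, and 0.411% of genes shortened by more. Ccnd2 changed by 1.24 on the log2(FPKM + 0.1) scale against 0.96 from counts, and Cdk6 by 0.36 against -0.09, while Ccnd1 gave 0.85 and 0.74. The implied length changed by -0.14 for Ccnd2 and -0.31 for Cdk6 in log2, less than the gaps between their 2 values. All genes shifted as well, with a median of 0.12 on the FPKM scale and -0.05 from counts. The difference for Ccnd1 is close to that shift. Over the 9987 genes the length varied by more than 10% between libraries for 28.1%, and the groups did not overlap for 13.0%. How the authors' software set these lengths is not given in the sources used here.

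**Figure D4:**
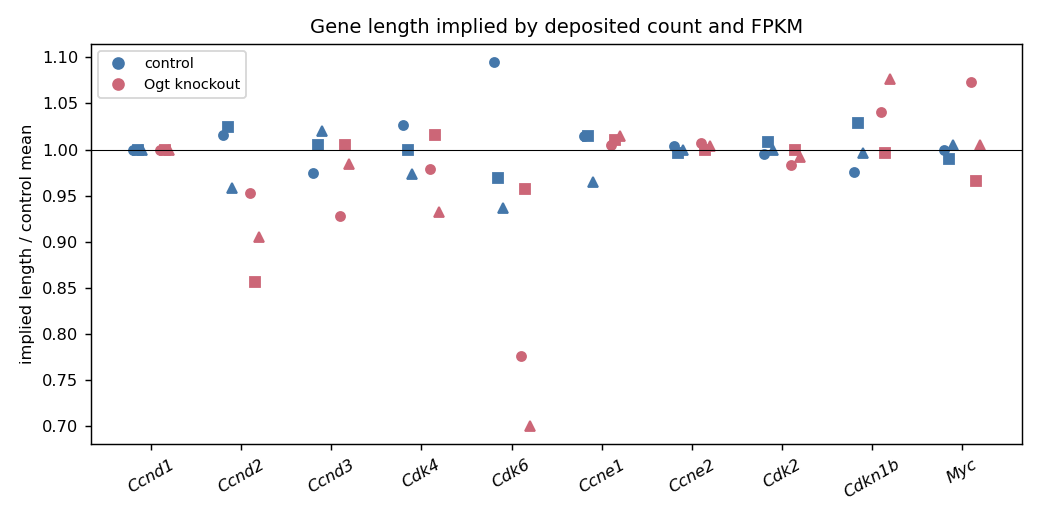
Length implied by the deposited count and FPKM of each gene, relative to its control mean (1), in every library; symbols mark replicates 1 to 3. Ccnd1 lies at 1 throughout, Ccnd2 lies lower in all 3 knockout libraries than in any control, and Cdk6 lies lowest in knockout 1 and 3.

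Other genes of the G1 machinery were read from lists by role. Of 6 tested inhibitors of cyclin-dependent kinases besides Cdkn1b, 1 fell and none rose, with a median log2 fold change of -0.47 against -0.05 over all tested genes. Cdkn2b, an INK4 inhibitor of CDK4 and CDK6, fell from 109.9 ± 16.9 to 71.4 ± 12.1 CPM (-0.62 ± 0.16, adjusted p = 0.0297). Omitting control 2, control 3, knockout 2 or knockout 3 ended that call, at adjusted p of 0.108 or less. Cdkn2d, another INK4 gene (-0.75 ± 0.23, adjusted p = 0.0578), and Cdkn1c, a CIP/KIP gene (-0.85 ± 0.27, adjusted p = 0.0642), missed the threshold. Cdkn1a, the p53-responsive CIP/KIP gene and the most abundant, stood at 319.8 ± 43.7 CPM in controls and 402 ± 40.2 CPM in knockout libraries (0.33 ± 0.14, adjusted p = 0.137). All 3 tested INK4 genes and Cdkn1c had negative values, and the only positive ones were Cdkn1a and Cdkn3 (0.52 ± 0.30, adjusted p = 0.261), a phosphatase acting on these kinases that was named after its value was seen.

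Among the 13 retinoblastoma and E2F genes 2 rose and 1 fell. Rb1, which encodes the retinoblastoma protein that cyclin D kinases inactivate, fell from 152 ± 7.46 to 93.2 ± 8.26 CPM (-0.71 ± 0.11, adjusted p = 0.00516), also with each library left out. E2f2, an activating E2F, rose (1.12 ± 0.25, adjusted p = 0.0217), as did E2f6, a repressor that does not bind the retinoblastoma protein (0.77 ± 0.20, adjusted p = 0.0311). E2f2 lost its call on omitting control 2, control 3, knockout 1 or knockout 3 (at most 0.0776), and E2f6 on omitting any library other than control 1 (adjusted p up to 0.123). Of 23 G1/S genes that E2F controls, 2 rose, with a median of 0.34. Cdt1, a licensing factor (0.66 ± 0.15), and Rrm2, a ribonucleotide reductase subunit (0.72 ± 0.20), rose, and Pcna, the abundant clamp, stood at 0.02 ± 0.14. Leaving out 1 library ended these calls in 4 or 5 of 6 cases each (adjusted p up to 0.0888 for Cdt1 and 0.129 for Rrm2). With control 1, 2 or 3 or knockout 1, 2 or 3 left out in turn, 4, 0, 1, 0, 0 and 0 of the 23 rose.

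Of 14 later cyclins and mitotic genes 1 rose and none fell, and their median was 0.55. All 14 had a positive log2 fold change, from counts that were low in control 2 as given above. Birc5, which encodes survivin, rose (0.66 ± 0.18, adjusted p = 0.035), and kinases Plk1 (0.52 ± 0.20, adjusted p = 0.115) and Aurka (0.47 ± 0.19, adjusted p = 0.119) and the proliferation antigen Mki67 (0.42 ± 0.30, adjusted p = 0.372) did not pass. Without control 1 the number that rose was 7, and without any other single library it was 0. Of 8 genes for kinases, their partner subunits and phosphatases that set the activity of cyclin-dependent kinases 1 rose. It was Cdk7, the catalytic subunit of the activating kinase (0.50 ± 0.12, adjusted p = 0.0262, and up to 0.0909 without control 2 or 3 or any knockout). The phosphatases Cdc25b (0.48 ± 0.14, adjusted p = 0.0506) and Cdc25a (0.31 ± 0.11, adjusted p = 0.0929) missed the threshold.

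Genes that act in the degradation of these regulators fell where they passed, 3 of 14, with a median of -0.03. Fbxo4, an F-box protein described as a cyclin D1 ligase subunit, fell from 15.4 ± 1.77 to 5.75 ± 0.566 CPM (-1.42 ± 0.17, adjusted p = 0.00266). Ubac1, a subunit of the KPC ligase that acts on CDKN1B in G1, fell from 23.1 ± 0.837 to 12.6 ± 1.77 CPM (-0.87 ± 0.14, adjusted p = 0.00688). Both passed with each library left out. Usp28, a deubiquitinase that stabilises MYC, fell (-0.62 ± 0.17, adjusted p = 0.036; up to 0.134 without any library other than knockout 1). Skp1a, the abundant SCF adaptor, stood at 0.45 ± 0.15 (adjusted p = 0.0715). Cyclin D1, CDKN1B and MYC are set to a large extent by protein turnover, which RNA counts do not measure.

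**Figure D5:**
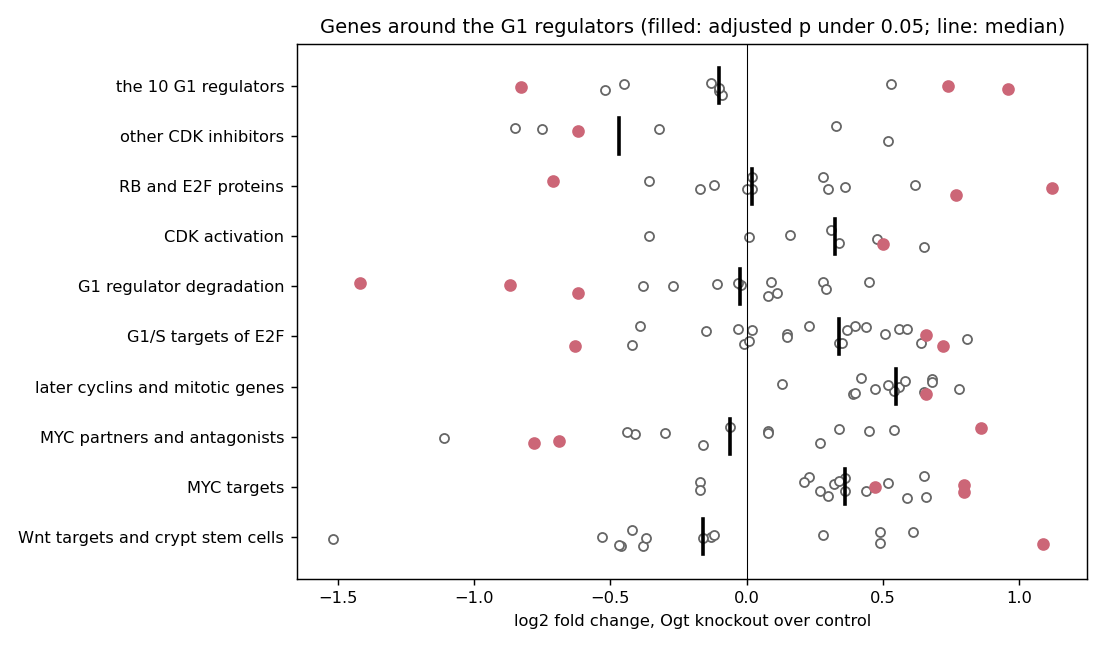
Log2 fold change, Ogt knockout over control, of every tested gene in the 10 G1 regulators and 9 lists around them; filled points have an adjusted p under 0.05 and vertical lines are medians. The medians run from -0.47 for other kinase inhibitors to 0.55 for later cyclins and mitotic genes.

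Of 15 MYC partners and antagonists 1 rose and 2 fell, with a median of -0.06. Mxd1, which competes with MYC for MAX and was the most abundant, fell from 946 ± 90.5 to 551 ± 91.3 CPM (-0.78 ± 0.16, adjusted p = 0.0138), and the related Mxd4 fell from 38.5 ± 2.98 to 23.9 ± 3.67 CPM (-0.69 ± 0.14, adjusted p = 0.0153). Mxd1 was not called without knockout 2 or 3 (at most 0.0646), nor Mxd4 without control 2 or 3 (at most 0.0592). Mycbp, a MYC-binding protein, rose from 19.8 ± 0.923 to 36.0 ± 1.29 CPM (0.86 ± 0.11, adjusted p = 0.00302). Of 18 MYC targets 3 rose and none fell, with a median of 0.36. Eif4e, the cap-binding translation factor, rose from 64.1 ± 5.25 to 112 ± 8.92 CPM (0.80 ± 0.11, adjusted p = 0.00362), also with each library left out. Cad, of pyrimidine synthesis (0.80 ± 0.17, adjusted p = 0.018; at most 0.0758 without control 3 or knockout 3), and Bop1, a ribosome biogenesis factor (0.47 ± 0.13, adjusted p = 0.0416; up to 0.129 without any library other than control 1), rose too. Ldha, lactate dehydrogenase and the most abundant, stood at 0.36 ± 0.14 (adjusted p = 0.0994). With control 1, 2 or 3 or knockout 1, 2 or 3 left out in turn, 9, 2, 1, 2, 2 and 1 targets rose. The 18 targets summed to between 2415 and 2664 CPM in controls and between 3142 and 3286 CPM in knockout libraries. Ldha, which did not pass, was the largest single part of these sums, at 1463 ± 149 and 1880 ± 70.4 CPM. The sums therefore say little about the less abundant targets. The groups overlapped for Myc itself.

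Of 15 tested Wnt targets and stem cell genes of the crypt, which share the Wnt input with Ccnd1 and Myc, 1 rose and none fell, with a median of -0.16. Ephb2, a receptor that positions crypt cells, rose (1.09 ± 0.30, adjusted p = 0.0467; up to 0.122 without control 3 or any knockout). Sp5 (-1.52 ± 0.47, adjusted p = 0.0582) and Rnf43, a Wnt feedback ligase (-0.46 ± 0.18, adjusted p = 0.107), were lower without passing, and Olfm4, the driver gene and the most abundant, stood at 0.49 ± 0.76 (adjusted p = 0.692). The summed level of the 16 listed genes ranged from 192 to 342 CPM in controls and from 234 to 409 CPM in knockout libraries. Olfm4 was the largest single part of these overlapping sums, at 83.5 ± 54.6 and 117 ± 77.3 CPM. Of the 15 tested genes 5 had a positive and 10 a negative log2 fold change, so the sum says little about single genes. The part of Wnt input or crypt cell number in the rise of Ccnd1 and Ccnd2 was not tested.

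Epithelial markers were present in all libraries, 10 of 10, at 17374 to 22209 CPM in controls and 16444 to 19629.6 CPM in knockout libraries. Lymphocyte markers, 12 of 12 detected and 0 called by edgeR or DESeq2 or at an unadjusted p under 0.05, summed to 332 to 484 CPM and 222 to 459 CPM. Myeloid markers, 8 of 8 detected and 0 called by edgeR (1 at an unadjusted p under 0.05, and 1 lower by DESeq2), summed to 262 to 303 CPM and 227 to 288 CPM. Stromal, muscle and endothelial markers, 11 of 11 detected, summed to 868 to 1811 CPM and 958 to 1316 CPM, and the collagens Col1a1 (0.79 ± 0.16, adjusted p = 0.0146) and Col1a2 (0.58 ± 0.12, adjusted p = 0.014), named after their values were seen, rose. Both lost the call without knockout 3 (adjusted p = 0.0598 and 0.0595). None of the summed levels of lymphocyte, myeloid and stromal markers separated the groups. The stromal sum joins 7 genes with a positive and 4 with a negative log2 fold change. Its most abundant gene was Myh11, of smooth muscle, at 512 ± 217 and 328 ± 109.7 CPM, against 46.9 ± 2.97 and 70.1 ± 8.32 CPM for Col1a2. The sum thus says little about the collagen genes. The part of these cells in the changes of Ccnd1, Ccnd2 and Cdkn1b was not tested.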

How the data were processed

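RNA sequencing of 6 libraries of ileal epithelial cells was used, 3 per group, grouped by their titles. The authors deposited 1 table that holds, per the file headers, an estimated count and an FPKM value for each gene and library. The submitters' processing notes name the builds GRCm39 and mm39. How reads were aligned, counted and filtered, and with which annotation, is not given in the sources used here. Per the labels' protocols, Trizol RNA and the NEBNext Ultra RNA kit were used, and no strand marking is stated. Between 7.68% and 8.09% of deposited counts per library were not whole (tolerance 0.001), including all those of Ccnd1, Ccnd3 and Cdk4. These 3 genes, Ccne2 and Cdk2 overlap exons of protein-coding genes on the other strand in GENCODE M21.

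Counts were rounded, filtered with filterByExpr (minimum count 10, minimum total 15), scaled by TMM and tested with edgeR 4.0.16 (R 4.3.3, robust quasi-likelihood test, Benjamini-Hochberg). Depth allows 3 counts to be read as 0.159 to 0.207 CPM. Genes were named by Ensembl ID from GENCODE M21 (22219 IDs). No pair of libraries agreed within sampling noise (mean chi-square per gene at least 19.5, against 1). On simulated counts for 14005 genes of this comparison the test called 62 of 100 simulated 2-fold changes and 99 of 100 simulated 4-fold changes, with 14 false calls. The changed genes averaged at least 50 counts and were a far smaller share than the 18.7% called in the data. These rates therefore need not hold for the real comparison. The 10 genes, the 15 lists and the tests were chosen with earlier results of these data known. Named are the 10 genes, Ogt, in each pathway list the most abundant gene and the 3 with the lowest adjusted p, in each marker list the most abundant gene, and 2 nearest genes for each called regulator. A gene that this rule selects, and the number of lower genes in its list, are not reported here. Overlapping neighbours and the marker genes that passed were named after their values were seen. Same-numbered libraries are not stated to share an animal or batch. Alternatives were other scalings and filters, DESeq2 1.42.0, limma 3.58.1 (voom, and on log2(FPKM + 0.1) or log2(FPKM + 1), keeping genes that reach 1 FPKM in 3 libraries, or unfiltered), the replicate block and each library left out. Within-library ratios were tested by exact permutation of the 6 libraries. Figures were drawn with matplotlib.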

Additional observations from a re-analysis of the deposited data

How the results depend on the processing

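Ccnd2 and Cdkn1b passed in all 17 alternative fits and Ccnd1 in 15. With 1 library left out, 549 to 1932 genes were higher and 460 to 1372 lower, and 1 to 3 of the G1 regulators were higher and 1 to 2 lower. Of all genes 1307 were higher and 1312 lower, but 2045 and 859 with library size alone, which moved the median log2 fold change from -0.05 to 0.09, and 712, 726 and 621 were lower with log2(FPKM + 0.1), log2(FPKM + 1) and unfiltered log2(FPKM + 0.1). DESeq2 gave 1626 and 1503. Signs turned, never with a call, for Ccnd3 (0.04 with library size alone, 0.08, 0.07 and 0.08 in the FPKM fits in that order), Cdk2 (0.01, 0.02, 0.02 and 0.02), Cdk6 (0.04, 0.36, 0.27 and 0.36; 0.10 without control 3, 0.02 without knockout 2, range with 1 library left out -0.24 to 0.10) and Myc (0.03, 0.08, 0.06 and 0.08; range with 1 library left out -0.32 to 0.36, the latter without control 1). They also turned for Pcna (-0.05 without control 2, range -0.11 to 0.15), Olfm4 (range -0.13 to 0.88), Lyz1 (-0.12 without control 2, range -0.13 to 1.04) and Gzma (range -0.07 to 0.75). The cause was not tested. The Ccne1 to Ccne2 ratio ranged from -0.04 to 0.23 with 1 library left out (-0.00 without control 2), and the other 3 ratios kept their sign in all 8 alternatives each.

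With the replicate number as a block, 1728 genes were higher and 1674 lower, Cdk4 passed (adjusted p = 0.0129) and so did Ccne2 (adjusted p = 0.045), giving 3 higher and 2 lower regulators. Deviations of same-numbered libraries correlated at 0.27, 0.25 and 0.08, and all 6 libraries correlated best with their own number. For control 3 this was nearly a tie, at 0.08 with knockout 3 and 0.07 with knockout 2. Deviations from a group mean depend on each other, so the 6 matches are not independent. The matching is a weak hint from the data, not the design. Sign-flip permutation of same-numbered ratio differences cannot go below 0.25.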

Other observations

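Absorptive and secretory markers give the setting in which the G1 regulators were read. Of 10 enterocyte markers 4 fell and none rose, with a median log2 fold change of -0.61: Fabp1 (-1.67 ± 0.26), Fabp2 (-0.78 ± 0.16), Alpi (-0.91 ± 0.16) and Slc15a1 (-1.46 ± 0.38), named after their values were seen. Fabp2 was not called without control 3 or knockout 3 (adjusted p up to 0.0693), nor Slc15a1 without any library other than control 1 (adjusted p up to 0.132). Anpep, the most abundant, stood at -0.56 ± 0.34 and was called without control 1 (-0.83, adjusted p = 0.0083). Their sum ran from 24171 to 34012 CPM in controls and from 21169 to 24800.4 CPM in knockout libraries. The number lower was 6 without control 1 and between 2 and 3 without any other single library. Of 10 general epithelial markers 1 fell: Cdx2, an intestinal identity factor (-0.53 ± 0.11; adjusted p up to 0.0584 without control 3 or knockout 2 or 3), while Krt8, the most abundant, stood at 0.11 ± 0.19. Of 8 Paneth cell markers 0 were called by edgeR or DESeq2 and 0 had an unadjusted p under 0.05, and Lyz1 stood at 0.37 ± 0.84. Gzma, the leading lymphocyte marker, stood at 0.21 ± 0.41, Lyz2, of myeloid and other cells, at -0.30 ± 0.14, and Myh11, of smooth muscle, at -0.64 ± 0.40.

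The genes whose level followed each called regulator most closely over the 6 libraries were taken among 12032 genes, by the root mean square difference of mean-centred log2 CPM. The difference between the groups is part of this measure. A shared direction of change therefore follows from the choice and is not a further result. Nearest to Ccnd2 were Gemin5, an RNA-binding subunit of the SMN complex (0.0428), and Sass6, a centriole assembly protein (0.0599), which both rose (0.88 ± 0.16 and 0.99 ± 0.17). Nearest to Ccnd1 were Pir (0.0619), at 0.73 ± 0.24 without passing (adjusted p = 0.0717), and N6amt1, a methyltransferase (0.0673), which rose (0.78 ± 0.19). Nearest to Cdkn1b were Frat1, a regulator of GSK3 (0.0604), at -0.73 ± 0.22 without passing (adjusted p = 0.0528), and Hist1h1c, a linker histone (0.0829), which fell (-0.81 ± 0.13).

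Of the protein-coding genes whose exons overlap a G1 regulator on the opposite strand, Bysl, the neighbour of Ccnd3, rose (0.82 ± 0.18, adjusted p = 0.0207) and Tspan31, that of Cdk4, fell. LTO1 beside Ccnd1 (0.13 ± 0.13), Ints8 beside Ccne2 (-0.19 ± 0.14) and Pmel beside Cdk2 (0.49 ± 0.36) did not pass.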
